A study of Mus musculus with 4 samples.

Results

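Rgs5, Vtn, Kcnj8, Pdgfrb, Notch3, Higd1b and Abcc9 mark pericytes, and Acta2, Tagln and Myl9 mark smooth muscle cells of the vessel wall. These 10 genes, of 31055 measured, were chosen by their values in these same libraries: mural markers had been seen higher in Dp2Yey than in WT mice within vascular cells. The libraries were droplet single-cell RNA counts from the hippocampus of male mice aged 3 months. Hemizygous Dp(10)2Yey mice, called Dp2Yey, were compared with WT littermates on a C57BL/6J background, with 2 mice per genotype and 1 library per mouse. Dp2Yey mice carry an extra copy of the stretch of mouse chromosome 10 whose genes lie on human chromosome 21, and none of the 10 genes is on mouse chromosome 10.

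The questions were which barcodes held the UMIs of the 10 genes, how pericyte and smooth muscle genes divided among them, and how far those barcodes overlapped with barcodes holding Cldn5, an endothelial tight junction gene. In brain vessels pericytes sit on capillaries within the basement membrane they share with endothelial cells, while smooth muscle cells wrap arterioles. WT replicate 1 had 1039 barcodes and 3002546 UMIs, and WT replicate 2 had 1708 barcodes and 6848466 UMIs. Dp2Yey replicate 1 had 1372 barcodes with 5112759 UMIs, and Dp2Yey replicate 2 had 2345 barcodes with 9612011 UMIs. Median UMIs per barcode were 2049 and 3669.5 in WT and 3386.5 and 3696 in Dp2Yey, so WT replicate 1 was the shallowest library. Of 6464 barcodes, 6264 were kept, and the 200 left out held no UMI of the 10 genes. Any pair of libraries shared between 0 and 3 barcode sequences, and none of the shared sequences belonged to a marker-rich barcode as defined further on.

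The 10 genes gave 6005 UMIs in kept barcodes. The 7 pericyte genes gave 4905, of which 92.2% lay in the vascular cluster of 320 barcodes, whose leading genes were Cldn5, Ly6c1, Flt1 and the globins. The 3 smooth muscle genes gave 1100, of which 26.1% lay in the vascular cluster and 68.5% in a cluster of 129 barcodes led by the ependymal genes Tmem212, Ccdc153 and Rarres2. Mural cells formed no cluster of their own at the resolution used. Most pericyte gene UMIs and most smooth muscle gene UMIs lay in different clusters, and Myl9 and Pdgfrb were each divided between clusters.

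**Figure D1:**
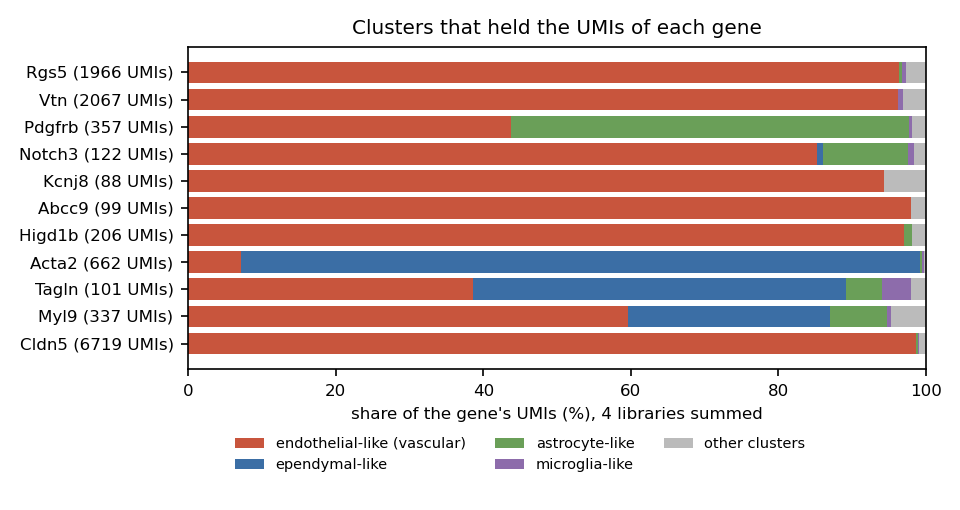
Share of the UMIs of each of the 10 genes and of Cldn5 that lay in the endothelial-like, ependymal-like, astrocyte-like, microglia-like and other clusters, as stacked bars in percent over all 4 libraries. Rgs5 had 96.4% in the endothelial-like cluster, Acta2 had 92.1% in the ependymal-like cluster and Pdgfrb had 54.1% in the astrocyte-like cluster.

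Rgs5 (ENSMUSG00000026678), a regulator that shortens G protein signalling, had 1966 UMIs in 176 barcodes, with 96.4% of them in the vascular cluster. Vtn (ENSMUSG00000017344), the secreted adhesion protein vitronectin, had 2067 UMIs in 135 barcodes and 96.2% in that cluster. Both were concentrated in few barcodes: 14 barcodes held 50% of the Rgs5 UMIs and 19 held 50% of the Vtn UMIs. Kcnj8 and Abcc9, which encode the pore and the regulatory subunit of an ATP-sensitive potassium channel, are neighbours on chromosome 6 with 16247 bases between them. Kcnj8 had 88 UMIs and Abcc9 had 99, with 94.3% and 98.0% in the vascular cluster. Higd1b, a small protein of the hypoxia-inducible domain family, had 206 UMIs and 97.1% there. Notch3, the Notch receptor of mural cells, had 122 UMIs, of which 85.2% were vascular and 11.5% were in the cluster with astrocyte genes. Rgs5 was found in 42.8% of vascular barcodes, Kcnj8 in 11.6% and Abcc9 in 15.3%. A cluster of 51 barcodes led by Reln and Ndnf, genes of Cajal-Retzius neurons, held another 35 Rgs5 and 37 Vtn UMIs. Of its barcodes 1 was marker-rich, and it held all 37 of those Vtn UMIs and 12 of the 35 Rgs5 UMIs. Rgs5 was found in 31.4% of the barcodes of this cluster, and Vtn in 1.96%.

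Pdgfrb, the receptor through which platelet-derived growth factor recruits mural cells, was the pericyte gene with the lowest vascular share. Of its 357 UMIs, 156 were in the vascular cluster and 193 were in the 899 astrocyte-like barcodes, where 159 barcodes (17.7%) held it at no more than 4 UMIs each. Vascular barcodes held 1895 Rgs5 UMIs beside their 156 of Pdgfrb, and astrocyte-like barcodes held 6 beside their 193. Only 1 of the 159 astrocyte-like barcodes with Pdgfrb also held Rgs5 or Vtn. Among 2003 microglia-like barcodes, with a median of 4100 UMIs against 1594 in astrocyte-like barcodes, 0.0499% held Pdgfrb.

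Acta2, smooth muscle alpha-actin, had 662 UMIs, of which 610 lay in the ependymal-like cluster and 47 in the vascular cluster. It was found in 90 of 129 ependymal-like barcodes (69.8%) and in 8 of 320 vascular barcodes (2.50%), against 0.0999% of microglia-like barcodes. Median depth was 2313 UMIs in ependymal-like barcodes and 2040.5 in vascular barcodes. Tagln, the actin-binding protein transgelin, had 101 UMIs, of which 51 were ependymal-like and 39 vascular. Myl9, the regulatory light chain of smooth muscle myosin, was divided among clusters: 201 of 337 UMIs were vascular, 92 ependymal-like and 26 astrocyte-like. No ependymal-like barcode held Rgs5, which at 0 of 129 allows a share of up to 2.33% of barcodes with a UMI. Of the 3 smooth muscle genes, Myl9 had the largest vascular share and Acta2 the smallest.

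Serum response factor acts on smooth muscle genes through the CArG box, and the stretches from 250 bases before to 50 bases after the start site are shown for Myl9 and Acta2 because the UMIs of these genes divided differently between the clusters. Both come from the RefSeq annotation of GRCm38.p6, and an exact CArG box, CC and GG around 6 bases that are all A or T, on either strand is in capitals.

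Myl9: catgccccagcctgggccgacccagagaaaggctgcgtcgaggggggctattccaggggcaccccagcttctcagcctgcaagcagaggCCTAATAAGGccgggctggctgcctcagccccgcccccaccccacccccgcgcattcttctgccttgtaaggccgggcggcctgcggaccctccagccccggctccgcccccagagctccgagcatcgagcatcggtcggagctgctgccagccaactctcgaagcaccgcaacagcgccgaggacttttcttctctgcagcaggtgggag

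Acta2: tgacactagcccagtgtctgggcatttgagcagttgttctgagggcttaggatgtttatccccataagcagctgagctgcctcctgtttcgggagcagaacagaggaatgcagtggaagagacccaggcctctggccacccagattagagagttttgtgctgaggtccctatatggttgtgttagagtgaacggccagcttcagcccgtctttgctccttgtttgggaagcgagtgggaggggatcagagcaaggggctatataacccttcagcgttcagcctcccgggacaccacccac

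The Myl9 sequence is the plus strand of chr2:156775214-156775513 and holds 1 CArG box, CCTAATAAGG, starting at -161 from the start site. The Acta2 sequence is the minus strand of chr19:34255324-34255623 and holds no exact box, but it holds 2 with 1 of the 6 middle bases C or G, ccctatatgg at -84 and ccttgtttgg at -34. Myl9 holds 1 of that kind, ccttgtaagg at -99. Exact boxes were present in 535 of 32851 promoters (1.63%) and in 1 of the 7 genes for which a promoter was matched, and boxes with 1 such base in 2792 promoters (8.50%) and in 2 of the 7 genes, a pattern added after seeing the data. A match is a description of the sequence, not a site of binding.

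Barcodes with at least 5 UMIs over the 10 genes from at least 3 of them were called marker-rich. There were 93, and they held 78.3% of the UMIs of the 10 genes. In 15 of them at least 50% of those UMIs came from Acta2, Tagln and Myl9, and these were called smooth muscle-weighted. The other 78 were called pericyte-weighted. These names describe the UMIs and not the cell type, since the 15 smooth muscle-weighted barcodes carried ependymal genes. The kinds were well separated: the highest smooth muscle share of a pericyte-weighted barcode was 40.9%, the lowest of a smooth muscle-weighted barcode was 94.7%, and 2 barcodes lay between 25% and 75%. Another 56 barcodes held 5 or more UMIs of the genes from fewer than 3 of them, 33 in the vascular and 20 in the ependymal-like cluster. Of the marker-rich barcodes, 12 had under 10 such UMIs.

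Pericyte-weighted barcodes lay in the vascular cluster in 77 of 78 cases. Rgs5 was found in 76, Vtn in 77, Higd1b in 54, Pdgfrb in 51, Abcc9 in 45, Notch3 in 41 and Kcnj8 in 35. Myl9 accompanied them in 62 barcodes, whereas Acta2 was found in 6, Tagln in 4 and both in 3. These barcodes held 82.1% of all pericyte gene UMIs and 56.4% of the Myl9 UMIs. Other pericyte genes were found in them too, with 2793 UMIs over a list of 30, all of which were detected. Not all of these set the barcodes apart. In the comparison with Cldn5-positive barcodes further on, 4 of the 9 tested were higher and 5, with Sparcl1 among them, did not pass.

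The 15 smooth muscle-weighted barcodes all lay in the ependymal-like cluster. Acta2 and Myl9 were found in 15 and Tagln in 14, with between 7 and 47 UMIs of the 10 genes per barcode. They held 1 pericyte gene UMI, of Notch3, and no Rgs5, Vtn or Cldn5, where 0 of 15 allows a share of up to 20%. Foxj1, the transcription factor of motile cilia, was found in 15 of 15 with 174 UMIs, and all 10 genes of the ependymal list were detected, led by Rarres2 with 757 UMIs. Foxj1 was found in 0 of 78 pericyte-weighted barcodes, which allows up to 3.85%. Of 30 further smooth muscle genes 23 were detected in the smooth muscle-weighted barcodes, at 4562 CPM in all against 6082 in pericyte-weighted barcodes. Crip1 led with 309 UMIs, and Ramp1 (194 UMIs), Cald1 (153) and Sncg (131) were found in 15 of 15. Those without a UMI were Myh11, Des, Tpm2, Smtn, Pln, Ppp1r14a and Actg2. These barcodes were deep, with a median of 18310 UMIs against 6104.5 in pericyte-weighted barcodes and 2313 in the ependymal-like cluster. Acta2 UMIs were divided as 47.7% in smooth muscle-weighted, 6.65% in pericyte-weighted and the rest in barcodes outside the marker-rich definition.

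**Figure D2:**
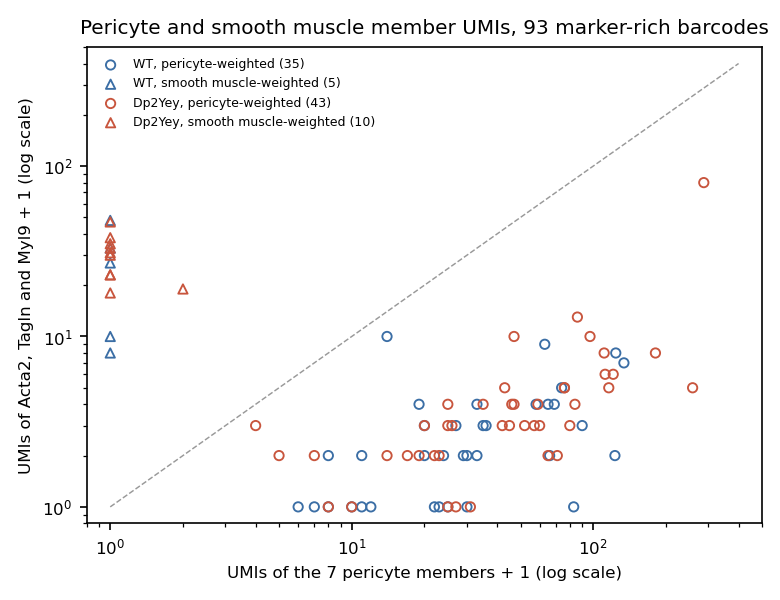
UMIs plus 1 of the 7 pericyte genes against UMIs plus 1 of Acta2, Tagln and Myl9 in each of the 93 marker-rich barcodes on log axes, with a dashed line where they are equal, circles for 78 pericyte-weighted and triangles for 15 smooth muscle-weighted barcodes, coloured by genotype. The triangles lie at 0 or 1 pericyte gene UMI, and 2 of the 93 barcodes have a smooth muscle share between 25% and 75%.

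Of the 6 pericyte-weighted barcodes with Acta2, all of which also held Rgs5, a single one held most of their Acta2 UMIs. It came from Dp2Yey replicate 2, had 18034 UMIs and held 257 Rgs5 UMIs, the most of any barcode. It also held 30 of the 47 vascular Acta2 UMIs, 28 of the 39 vascular Tagln UMIs and 21 Myl9 UMIs. Myh11, the smooth muscle myosin heavy chain, had 25 of its 39 UMIs in this barcode, beside 43 of Cald1 and 14 of Mylk. Among the pericyte genes it held 9 Pdgfrb, 9 Notch3, 7 Vtn and 4 Higd1b UMIs but neither Kcnj8 nor Abcc9, and it held 54 Cldn5 UMIs. By the definition used it was pericyte-weighted, because Rgs5 outnumbered the smooth muscle genes. In the vascular cluster as a whole the Acta2 UMIs per library were 1 and 5 in WT and 9 and 32 in Dp2Yey, and Tagln had 0 and 8 in WT and 1 and 30 in Dp2Yey, so the Dp2Yey replicate 2 counts of both genes came mostly from this barcode.

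Vtn was also found apart from Rgs5. Among vascular barcodes with at least 10 Vtn UMIs, 44 held Rgs5 and 9 did not. The 9 came from WT replicate 1 with 2, WT replicate 2 with 1 and Dp2Yey replicate 2 with 6, and held 290 Vtn UMIs, 14% of all. None of the 9 held Cldn5, which allows a share of up to 33.3%, while 3 held Pdgfrb and 1 met the marker-rich definition. All 9 held Dcn, a collagen-binding proteoglycan of fibroblasts, and the list of 12 fibroblast genes had a median of 18 UMIs per barcode, 1.06% of all UMIs. In the 44 with Rgs5 the same list had a median of 1 UMI, 0.0412% of all UMIs, at a median depth of 5558 against 2794 UMIs. The barcode with the most UMIs outside the marker-rich definition held 66 of Vtn and 1 of Tagln.

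Cldn5 was found in 305 barcodes, of which 252 were vascular. Of the 93 marker-rich barcodes 66 held Cldn5, all of them pericyte-weighted. By library, 11 of 12 pericyte-weighted barcodes of WT replicate 1 held Cldn5 (91.7%, exact 95% interval 61.5 to 99.8), and 22 of 23 in WT replicate 2 (95.7%, 78.1 to 99.9). In Dp2Yey replicate 1 the count was 12 of 18 (66.7%, 41.0 to 86.7), and in replicate 2 it was 21 of 25 (84.0%, 63.9 to 95.5). Both Dp2Yey shares lay under both WT shares, at a mean of 75.3% ± 12.3 (SD, n = 2) against 93.7% ± 2.82 (SD, n = 2), with overlapping intervals and an exact two-sided permutation p of 0.33, the smallest that 2 against 2 allows. Of the 4 pericyte-weighted barcodes of Dp2Yey replicate 2 without Cldn5, 2 held no Rgs5. With Rgs5 required, a choice made after seeing the data, that library had 21 of 23 (91.3%, 72.0 to 98.9), next to the 91.7% of WT replicate 1, and the other libraries were as before. In microglia-like barcodes Cldn5 was found in 13 of 2003 (0.649%), with 17 UMIs in all, at a median of 4100 UMIs, against a median of 6104.5 UMIs in pericyte-weighted barcodes. When barcodes of at least 1000 UMIs were thinned to 1000, the shares were 90.9% in each WT library and 80.0% and 79.2% in Dp2Yey.

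Pericyte-weighted barcodes with Cldn5 also held other endothelial genes. Their median was 44 Cldn5 UMIs in 8266.5 UMIs, and the list of 20 endothelial genes stood at 40224 CPM (UMIs scaled to all UMIs of the barcodes) in them against 33779 in Cldn5-positive barcodes that were not marker-rich. Not all Cldn5-positive barcodes that were not marker-rich were vascular, and 13 lay in the microglia-like cluster. They held oligodendrocyte genes at 10267 CPM and microglia genes at 6646 CPM, against 926 and 306 in pericyte-weighted barcodes with Cldn5. The endothelial values therefore do not set pericyte-weighted barcodes against endothelial cells alone. Flt1, a vascular endothelial growth factor receptor, was found in 63 of the 66 pericyte-weighted barcodes with Cldn5. The 12 without Cldn5, 1 from each WT library, 6 from Dp2Yey replicate 1 and 4 from replicate 2, had a median of 1790 UMIs and endothelial genes at 1538 CPM. Pericyte genes made up a median of 3.30% of their UMIs, against 0.553% in the barcodes with Cldn5. Of the endothelial list 11 of 20 genes were detected in the 12, with 33 UMIs in all, of which 10 were of Bsg, and no UMI of a globin was found. Mitochondrial genes took a median of 8.65% of UMIs in the 12 and 5.96% in the 66.

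**Figure D3:**
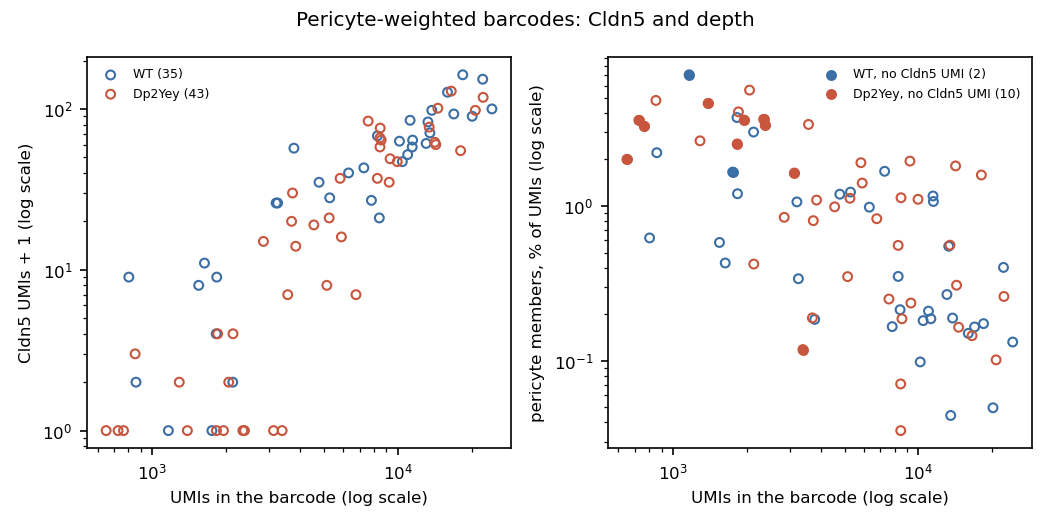
Each of the 78 pericyte-weighted barcodes by its total UMIs on a log axis, against Cldn5 UMIs plus 1 in one panel and against the percent of UMIs from the 7 pericyte genes in the other, coloured by genotype and, in the second panel, filled where no Cldn5 UMI was found. The 12 filled points, 2 WT and 10 Dp2Yey, have a median of 1790 UMIs against 8266.5 for the 66 with Cldn5.

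From the Cldn5 side, 239 of 305 barcodes were not marker-rich, and their median count of the 10 genes was 0 with a highest count of 18. Marker-rich barcodes made up 16.7% and 26.8% of Cldn5-positive barcodes in WT and 22.6% and 20.2% in Dp2Yey, which overlapped. Rgs5 UMIs lay in Cldn5-positive barcodes for 91.7% of their number, Vtn for 68.9%, Notch3 for 79.5% and Pdgfrb for 29.4%. Acta2 had 6.50% there and Myl9 54.3%. Of the Cldn5 UMIs, 47.4% lay in marker-rich barcodes.

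The number of marker-rich barcodes was not higher in Dp2Yey relative to cells recovered. Marker-rich barcodes were 15 and 25 in WT and 19 and 34 in Dp2Yey, which made 1.47% (0.825 to 2.41) and 1.48% (0.963 to 2.18) of kept barcodes in WT and 1.41% (0.849 to 2.19) and 1.54% (1.07 to 2.15) in Dp2Yey. The 4 shares lay within each other's intervals. Pericyte-weighted barcodes alone were 1.18% and 1.37% of kept barcodes in WT and 1.33% and 1.13% in Dp2Yey, again overlapping. The vascular cluster was smaller in Dp2Yey, with 6.37% and 5.64% of kept barcodes in WT and 4.15% and 4.71% in Dp2Yey. These groups did not overlap, with means of 6.00% ± 0.513 against 4.43% ± 0.400 (SD, n = 2 each) and an exact permutation p of 0.33. As a share of vascular barcodes the pericyte-weighted ones were 18.5% and 24.2% in WT and 32.1% and 23.1% in Dp2Yey, and overlapped. Smooth muscle-weighted barcodes were 3 and 2 in WT and 1 and 9 in Dp2Yey. They made 20% and 8% of marker-rich barcodes in WT and 5.26% and 26.5% in Dp2Yey, so each Dp2Yey library stood at an end of the range and the difference of means, 1.87 points, changed to -8.74 without Dp2Yey replicate 2 and to -4.13 without WT replicate 2.

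**Figure D4:**
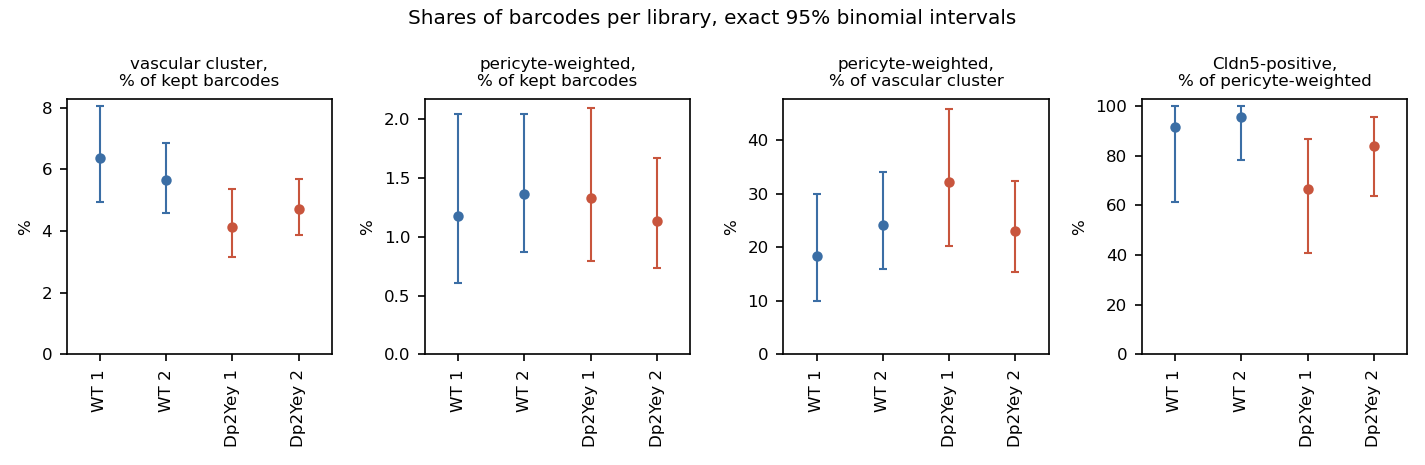
Share in percent of barcodes per library with exact 95% binomial intervals in 4 panels: vascular barcodes of kept barcodes, pericyte-weighted of kept, pericyte-weighted of vascular, and Cldn5-positive of pericyte-weighted. The vascular shares of 6.37% and 5.64% in WT lie above 4.15% and 4.71% in Dp2Yey, and the pericyte-weighted shares of kept barcodes lie between 1.13% and 1.37%.

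Within the vascular cluster pericyte genes were higher in both Dp2Yey libraries than in both WT libraries for most of the list. Rgs5 stood at 1209 and 1037 CPM in WT and 2130 and 1773 in Dp2Yey. Vtn was at 1298 and 897 in WT and 2620 and 1878 in Dp2Yey, and Pdgfrb at 107 and 57.8 against 264 and 133. For all 3 genes the libraries of the genotypes did not overlap, with mean ratios of 1.74, 2.05 and 2.40. Notch3 was at 49.1 and 53.3 in WT and 124 and 107 in Dp2Yey, and Kcnj8 at 35.7 and 46.6 against 178 and 48.9. Myl9 was at 103 and 88.9 in WT and 360 and 165 in Dp2Yey. Dp2Yey replicate 1 was the higher of the Dp2Yey libraries for these genes, and Kcnj8 in replicate 2 was close to the WT level. Higd1b, at 103 and 131 in WT and 360 and 119 in Dp2Yey, Abcc9 and Tagln overlapped. In all, 7 of 10 genes had both Dp2Yey libraries above both WT libraries, where 15.7% of 5358 genes tested did so, and 0 had both below, where 15.5% did. The choice of the genes used this contrast, so nothing is read from these counts.

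The vascular values that follow come from the contrast that chose the 10 genes, so nothing is read from their sign or size. Fitted log2 fold changes for the 9 of the 10 genes with enough counts in the vascular cluster were all above 0, with a median of 1.13 against 0.00 for all genes tested. They ran from 0.79 (SE 0.19) for Rgs5 to 1.40 (SE 0.39) for Myl9, with Acta2 apart at 2.82 (SE 0.53). Their median was 0.77 without Dp2Yey replicate 1 and 1.58 without Dp2Yey replicate 2. Without the single barcode rich in Rgs5, left out after seeing the data, 8 genes were fitted with a median of 1.03, Rgs5 was at 0.57 and Acta2 fell under the count needed. Over all kept barcodes the difference was small: Rgs5 stood at 94.2 and 73.4 CPM in WT and 80.9 and 88.2 in Dp2Yey. Those values overlapped, and the 10 genes had a median log2 fold change of 0.26 against 0.01 for all genes tested. There, 3 of 10 had both Dp2Yey libraries higher (14% of 13808 genes did) and 0 had both lower (12.9%). Cldn5 over all kept barcodes was at 449 and 336 CPM in WT and 206 and 234 in Dp2Yey, a mean ratio of 0.560.

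Among pericyte-weighted barcodes, which were picked by the UMIs of the same genes, most of the 10 genes were higher in Dp2Yey. Rgs5 was at 1927 and 1901 CPM in WT and 4501 and 3421 in Dp2Yey, and Vtn at 1903 and 1999 against 5757 and 3141. Both Dp2Yey libraries stood above both WT libraries for 8 of the 10 genes, where 17.1% of all genes with at least 10 UMIs did, and none had both below, where 17.3% did. The median ratio was 2.74, against 0.990 over those genes. The 10 genes were chosen by this contrast in the vascular cluster, where 77 of the 78 barcodes lay. Nothing is therefore read from these counts and ratios. Counted per barcode without scaling, pericyte-weighted barcodes held a mean of 46.3 and 37.0 pericyte gene UMIs in WT and 58.8 and 62.4 in Dp2Yey. Those means did not overlap, at 41.7 ± 6.60 against 60.6 ± 2.52 (SD, n = 2 each). Total depth moved the other way: the median pericyte-weighted barcode had 10307 and 7817 UMIs in WT and 3772 and 5829 in Dp2Yey. The 4 main globin genes and Alas2 together took 39452 and 43037 CPM of these barcodes in WT and 71.8 and 37527 in Dp2Yey, where Dp2Yey replicate 1 stood apart. Endothelial genes were lower in both Dp2Yey libraries in these barcodes, at 39460 and 43135 CPM in WT and 31480 and 37619 in Dp2Yey, and markers of some other cell types were higher in both. Fibroblast genes were at 303 and 338 CPM in WT and 1257 and 803 in Dp2Yey, astrocyte genes at 1999 and 1760 against 5087 and 2265, and oligodendrocyte precursor genes, most of whose UMIs were of the pericyte gene Cspg4, at 71.7 and 32.7 against 335 and 150. How far depth, globin, endothelial genes and the other cell types account for the difference in the 10 genes was not tested.

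**Figure D5:**
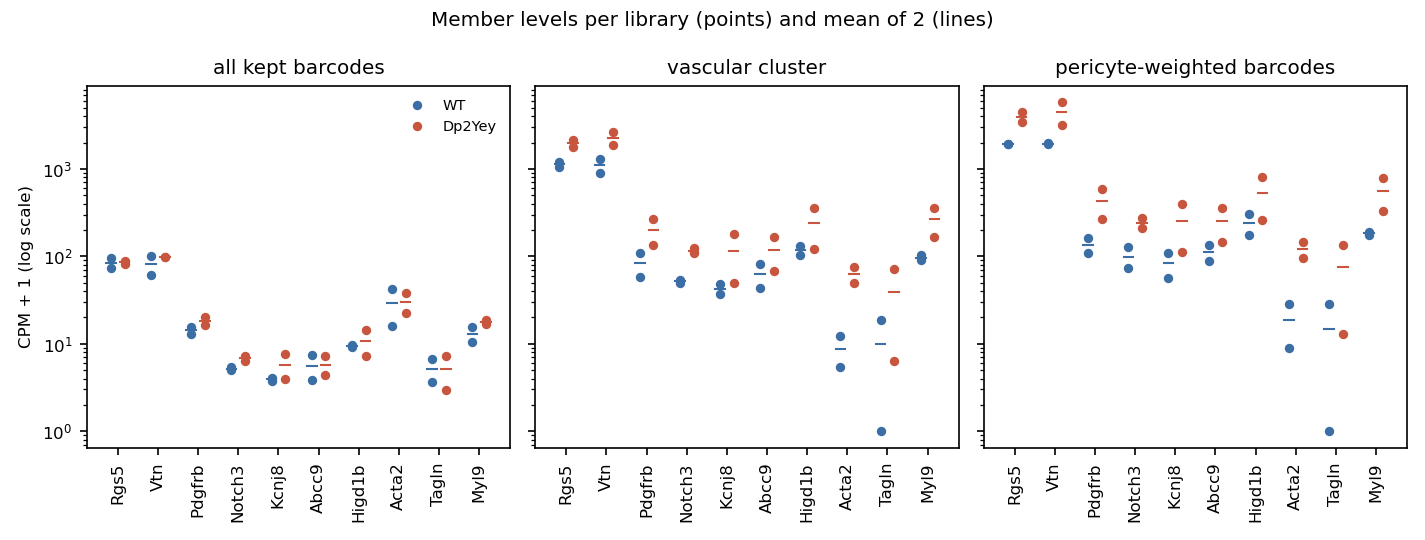
CPM plus 1 of the 10 genes on a log axis in each library, with a line at the mean of each genotype, for all kept barcodes, the vascular cluster and pericyte-weighted barcodes. In pericyte-weighted barcodes Rgs5 lies at 1927 and 1901 CPM in WT and at 4501 and 3421 in Dp2Yey, while over all kept barcodes the genotypes overlap.

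Cldn5-positive barcodes were sorted into kinds by the UMIs of the 10 genes, so the genotype ratios of these genes within each kind depend on that sorting and are given as values. In pericyte-weighted barcodes with Cldn5, Rgs5 was at 1889 and 1903 CPM in WT and 4115 and 3445 in Dp2Yey. Here 7 of the 10 genes had both Dp2Yey libraries higher, where 15.9% of genes with at least 10 UMIs did, and none had both lower, where 17.7% did. In Cldn5-positive barcodes that were not marker-rich, Rgs5 was at 280 and 619 CPM in WT and 178 and 221 in Dp2Yey, from 31, 118, 21 and 66 UMIs. Both Dp2Yey libraries were lower there, with a mean ratio of 0.443. Of the 10 genes 4 had both Dp2Yey libraries lower in these barcodes (15.9% of genes did) and 0 had both higher (15.7%), but Rgs5 was the only one of the 4 with at least 10 UMIs. Pericyte-weighted barcodes without Cldn5 gave too few WT values to compare, with 1 barcode in each WT library. In them 2 genes, Pdgfrb and Myl9, had both Dp2Yey libraries higher (24.6% of 284 genes did) and 2, Kcnj8 and Abcc9, had both lower (11.3%).

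Genes outside the 10 were tested between genotypes in the vascular cluster, with Benjamini-Hochberg adjustment at 0.01. No gene passed by edgeR, and so 0.00% were called: 170 of 5349 genes had an unadjusted p under 0.05, and DESeq2 called 0. The number of calls was 64 without WT replicate 1, 14 without WT replicate 2, 15 without Dp2Yey replicate 1 and 60 without Dp2Yey replicate 2. Of 30 further pericyte genes 18 were tested, 16 were above 0 and the median log2 fold change was 0.81, against 0.00 over all genes. Among these, Cd248, a mural surface glycoprotein, was at 1.50, Atp13a5 at 1.47, Ndufa4l2 at 1.51 and Cspg4, the proteoglycan NG2, at 1.74. In 9 of the 18 both Dp2Yey libraries were higher (15.7% of 5358 genes), and in none were both lower (15.5%). Further smooth muscle genes stood nearer to the middle, with 12 of 18 above 0 and a median of 0.20. Genes of signalling between mural and endothelial cells had a median of 0.15, endothelial genes had 9 of 20 above 0, and fibroblast genes had a median of -0.59 with 7 of 9 below 0. Astrocyte genes were above 0 for 6 of 7, with a median of 0.58. Most further pericyte genes tested lay on the same side as the 10, with none past the threshold. Mural markers had already been seen higher in this contrast, so that side is not read as separate support.

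Over all kept barcodes 13798 genes outside the 10 were tested, and edgeR called 0 at an adjusted p under 0.01, with 378 at an unadjusted p under 0.05 and 3 called by DESeq2. Leaving out WT replicate 1 gave 10 calls. The endothelial list stood below 0 for 19 of 20 genes, with a median of -0.61 and both Dp2Yey libraries lower for 18 (12.9% of 13808 genes). Cldn5 was at -0.83 and Flt1 at -0.82. Further pericyte genes were at a median of -0.11 and further smooth muscle genes at -0.04. Over all kept barcodes these medians do not describe mural cells alone. The vascular cluster held 197 of 200 Ndufa4l2 UMIs, but 1539 of 14918 Sparcl1 UMIs and 61 of 9904 Ppp1r14a UMIs. Astrocyte genes were above 0 for 10 of 10, with a median of 0.45.

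In the marker-rich barcodes themselves 3885 genes outside the 10 were tested and edgeR called 0, with 270 at an unadjusted p under 0.05 and 0 by DESeq2. Without a library the calls were 2 for either WT replicate, 63 for Dp2Yey replicate 1 and 29 for Dp2Yey replicate 2. The 10 genes were all above 0 at a median of 1.05, which was 0.39 with 7 of 10 above 0 without Dp2Yey replicate 1. In 6 of the 10 both Dp2Yey libraries were higher (16.8% of genes) and in 0 both were lower (19.0%). The vascular contrast chose these genes and their UMIs chose these barcodes, so nothing is read from these values. Further pericyte genes were above 0 for 11 of 15, with a median of 0.74. The endothelial list was below 0 for 19 of 20, with a median of -0.55 and both Dp2Yey libraries lower for 15 (19.0% of genes). The globin genes were below 0 for 4 of 4, at a median of -1.62. Ependymal genes were above 0 for 10 of 10, at a median of 0.71, and astrocyte genes for 8 of 9, at 0.35. Of the 15 smooth muscle-weighted barcodes in this set, which carried the ependymal genes, 9 came from Dp2Yey replicate 2.

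Pericyte-weighted barcodes were set against Cldn5-positive barcodes that were not marker-rich, library by library, to find genes outside the 10 that went with them. Taking the 78 alone, without the 15 ependymal-like barcodes, was chosen after seeing the data. Of 2609 genes outside the 10, 51 passed (1.95%), 16 higher (0.613%) and 35 lower (1.34%). Across all 4 libraries 9.56% of genes were higher and 8.75% lower, and the 7 of the 10 genes with enough counts, which had chosen the barcodes, were higher in each. Ifitm1, an interferon-induced membrane protein, was higher by a log2 fold change of 5.80 (adjusted p = 6.74e-06), Ndufa4l2, a mitochondrial subunit induced by hypoxia, by 5.38 (adjusted p = 1.44e-06), and Atp13a5, a transporter of the P-type ATPase family, by 5.09 (adjusted p = 1.73e-06). All were higher in 4 of 4 libraries. Gucy1b1, a subunit of the nitric oxide receptor guanylate cyclase, was at 4.73, Rgs4, a relative of Rgs5, at 3.80, Mylk at 2.93 and Cald1 at 2.72. Of the lists, 4 of 9 further pericyte genes and 3 of 14 further smooth muscle genes passed, all higher. The endothelial list, which includes Cldn5, had 0 of 20 past the threshold and a median of 0.09. Microglia genes were lower for 9 of 9 and stood at 300 CPM in the pericyte-weighted barcodes. The Cldn5-positive barcodes that were not marker-rich held microglia genes at 6646 CPM and oligodendrocyte genes at 10267 CPM, so they were not endothelial cells alone.

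The same comparison with all 93 marker-rich barcodes had 15 ependymal-like barcodes on 1 side. The 10 genes chose those barcodes, so their own values, from 2.61 to 6.42 for the 7 with enough counts, describe that choice. Of 3161 other genes 228 passed (7.21%), 168 higher (5.31%) and 60 lower (1.90%) in marker-rich barcodes. DESeq2 called 152. The edgeR count was 93 without Dp2Yey replicate 2 and 359 without Dp2Yey replicate 1. In all 4 libraries 12.8% of genes tested were higher and 13% lower. All 7 of the 10 genes that were fitted were higher in each library. Dmkn was fitted at a log2 fold change of 7.35. Among genes of cilia, Cfap206 was at 7.34 (edgeR adjusted p = 1.12e-06), Dnah5 at 7.13 and Dnah9 at 5.50. Each of these genes was higher in 4 of 4 libraries. Dmkn, Cfap206 and Dnah5 had no UMI in the Cldn5-positive barcodes, so their values and order are not exact. The ependymal list passed for 10 of 10 genes. Of the smooth muscle list 7 of 16 were higher, such as Cald1, an actin-binding regulator of contraction, at 2.62 and Mylk, the kinase of myosin light chain, at 2.59, and 1, Ppp1r14a, was lower at -1.54, though not in every library. Of the 7, Ramp1, Sncg, Flna and Actn1 did not pass or were not tested with pericyte-weighted barcodes alone. Microglia genes were lower for 10 of 10, such as Cx3cr1 at -5.27 and Gpr34 at -5.20, and in the Cldn5-positive barcodes they stood at 6646 CPM.

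Genes that shared the distribution of the 10 were ranked by the share of their UMIs in marker-rich barcodes among 14229 genes with at least 30 UMIs. Marker-rich barcodes held 3.80% of all UMIs. Ndufa4l2 came first with 193 of 200 UMIs (96.5%), followed by Aspn, an extracellular matrix proteoglycan, with 93.3%, Gm13861 with 88.6% and Gper1, a receptor of oestrogen, with 88.3%. Gkn3 was at 86.1%, Gja4, a connexin of arterial cells, at 82.9%, Tbxa2r, the thromboxane receptor, at 82.6%, Myh11, with 25 of its 39 UMIs in 1 barcode, at 82.1%, Cox4i2 at 76.4% and Atp13a5 at 75.4%. Apart from 1 UMI of Cox4i2, the UMIs of these ranked genes in marker-rich barcodes lay in pericyte-weighted barcodes. For the smooth muscle-weighted barcodes, which held 1.27% of all UMIs, the first genes were Gm34006 at 60.9%, Krt19 at 60.6% and Daw1 at 59.3%.

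The clusters that held Acta2 and Pdgfrb outside the vascular one were compared between genotypes as well, a comparison added after seeing the data. In ependymal-like barcodes Acta2 stood at 827 and 623 CPM in WT and 928 and 777 in Dp2Yey, which overlapped, with a fitted log2 fold change of 0.18. Of Acta2 and Myl9, the 2 genes fitted, 1, Myl9, had both Dp2Yey libraries higher (15.5% of genes) and 0 had both lower (15.2%). No gene outside the 10 was called by edgeR among 2899 tested, with 101 at an unadjusted p under 0.05 and 0 by DESeq2, and there were 8 calls without WT replicate 2 or without Dp2Yey replicate 1. In astrocyte-like barcodes Pdgfrb stood at 78.1 and 105 CPM in WT and 84.5 and 93.6 in Dp2Yey, a log2 fold change of -0.11 (SE 0.27) that was 0.18 without WT replicate 2. It overlapped, so the count was 0 of 1 for higher (16.5% of genes) and for lower (16.0%). Of 6586 other genes 6 were called (0.0911%), 4 higher (0.0607%) and 2 lower (0.0304%), with 2 by DESeq2. The number with 1 library left out was between 3 and 21, and leaving out called doublets gave 1. Among the genes called, Cx3cr1, a microglia receptor, was at 4.16, higher in both Dp2Yey libraries, and Lars2 was at -1.22. The Cx3cr1 call was lost with DESeq2 and without called doublets, where 0 genes were called higher, and the Lars2 call stayed in both. The microglia list was above 0 for 10 of 10 genes in these barcodes, with a median of 0.93.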

How the data were processed

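The counts were the UMI counts of barcodes called as cells, deposited by the authors, who made them with Cell Ranger 3.0.2 on a custom mm10 reference. Barcodes with at least 200 genes were integrated with Seurat 5.3.0 (2000 variable genes, 50 dimensions, resolution 0.2). A first pass gave no cluster of red blood cells, so 17 barcodes with over 50% globin UMIs were left out, a choice made after seeing the data. Clusters were named when at least 3 of their 10 leading genes were markers of 1 cell type, with 10 CPM added before the fold. Doublets called by Scrublet (54, of which 0 were marker-rich) were kept. UMIs were summed per library over each set of barcodes. Genes outside the 10 were tested with edgeR 4.0.16 (quasi-likelihood, TMM, filterByExpr, Benjamini-Hochberg, 0.01) and with DESeq2 1.42.0 as a second tool. Library was a block where marker-rich barcodes were compared with Cldn5-positive barcodes that were not marker-rich. Values of the 10 genes carry no test. Marker-rich, smooth muscle-weighted and Cldn5-positive barcodes, gene lists and the genes to name (the 10 of largest change each way in the barcode comparison, the 5 in each genotype comparison, the 10 with the highest share in marker-rich barcodes, and examples of lists) were, like the 10 genes, chosen with earlier results of these data known. Flt1, Foxj1, Myh11, Dcn and the single barcode were singled out after their values were seen.

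With 2 mice per genotype no permutation p can fall under 0.33. Preparation took 2 days, each with 1 mouse of each genotype, and which replicates shared a day is not stated. Binomial intervals cover counting error only and treat barcodes of 1 mouse as independent. A marker-rich barcode with Cldn5 cannot be told apart as 1 cell, attached cells or a doublet. Barcodes were sorted into kinds by the genes described, so differences between kinds in those genes, and genotype ratios within a kind, depend on the sorting. Free RNA was not removed.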

Additional observations from a re-analysis of the deposited data

Results flagged for a closer look

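The genotype ratio of Rgs5 lay on opposite sides of 1 in different barcodes. Mean CPM in Dp2Yey over WT was 1.74 in endothelial-like barcodes (1895 UMIs) and 0.303 in astrocyte-like barcodes (6 UMIs). Both Dp2Yey libraries lay above both WT libraries in the former and below them in the latter. The first ratio comes from the contrast that chose the genes. The second rests on 1 and 3 UMIs in WT and 1 and 1 in Dp2Yey. Nothing is read from the direction of either. Ratios also lay on opposite sides of 1 in pericyte-weighted barcodes with Cldn5 and in Cldn5-positive barcodes that were not marker-rich, but the UMIs of the 10 genes themselves sorted barcodes into these kinds, so the ratios depend on that sorting. Rgs5 was at 1.99 and 0.443 (1567 and 236 UMIs), Kcnj8 at 3.11 and 0.234 (62 and 3 UMIs) and Abcc9 at 2.56 and 0.341 (74 and 5 UMIs). In pericyte-weighted barcodes without Cldn5 the ratio of Kcnj8 was 0.415 (21 UMIs) and that of Abcc9 was 0.250 (19 UMIs), with 1 barcode in each WT library. None of these differences between kinds of barcode was tested, and their cause was not tested. The 200 barcodes that were not kept held 18 Cldn5 UMIs, in 5 barcodes, and no UMI of the 10 genes.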

How the results depend on the processing

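The calls of 6 comparisons, the number of marker-rich barcodes, their Cldn5-positive share and their smooth muscle-weighted share were computed again with 1 choice changed at a time. The other barcode shares were not, and neither were the calls between pericyte-weighted barcodes and Cldn5-positive barcodes that were not marker-rich. The latter are called endothelial barcodes below for short, although not all were vascular and 13 lay in the microglia-like cluster. A lone library left in a genotype was assumed to vary like the others. The cause of each change below was not tested.

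Without a filter on low counts, genes outside the 10 called between genotypes were 87 over all kept barcodes (0 with the filter), 34 in the vascular cluster (0), 12 in marker-rich barcodes (0), 6 in ependymal-like (0) and 12 in astrocyte-like barcodes (6), and between marker-rich and endothelial barcodes 962 (228). DESeq2 gave 3 over all kept barcodes and 2 in astrocyte-like ones, where leaving out doublets gave 1. Between marker-rich and endothelial barcodes DESeq2 gave 152, no block for library 156, an adjusted p under 0.05 gave 346, marker-rich barcodes without Cldn5 gave 888, and pericyte-weighted barcodes only, chosen after seeing the data, gave 51. The more lenient definition, at least 3 UMIs from at least 2 genes, gave 4 calls between genotypes in marker-rich barcodes. It raised the number of marker-rich barcodes from 93 to 151, and thinning to 1000 UMIs lowered it to 35, since fewer UMIs then met the minimum.

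With 1 library left out, calls between genotypes ranged from 0 to 10 over all kept barcodes, 14 to 64 in the vascular cluster, 2 to 63 in marker-rich, 0 to 8 in ependymal-like and 3 to 21 in astrocyte-like barcodes, and from 93 to 359 between marker-rich and endothelial barcodes. The number of marker-rich barcodes ranged from 59 to 78. The Dp2Yey minus WT difference in the share of marker-rich barcodes that are Cldn5-positive, -18.2 points, ranged from -25.5 to -10.9 and kept its sign in all 9 other settings too, where it was smallest with thinning to 1000 UMIs, at -5 points. It was -14.7 with pericyte-weighted barcodes holding Rgs5 only, a setting chosen after seeing the data. The difference in the share of marker-rich barcodes that are smooth muscle-weighted, 1.87 points, ranged from -8.74 to 12.5 and changed sign without WT replicate 2 (-4.13) and without Dp2Yey replicate 2 (-8.74). Gm26870 in astrocyte-like barcodes, at 1.42, was at -0.17 without Dp2Yey replicate 2 and at most 2.18 with another library left out.

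Nothing is read from the sign of the vascular fold changes of the list, since that contrast chose the genes. The fitted log2 fold changes of the 9 genes of the list in the vascular cluster were above 0 wherever fitted, with a median between 0.77 and 1.58. The lowest was Higd1b at 0.02 without Dp2Yey replicate 1, and 8 genes were fitted without the barcode with the most Rgs5 UMIs. Over all kept barcodes 7 of the 10 genes changed sign in at least 1 setting that left out a library. With replicate number as a block, which assumes that equal numbers shared a preparation day, calls were 0 over all kept barcodes, in the vascular cluster, in marker-rich and in ependymal-like barcodes and 6 in astrocyte-like ones. Scaling by relative log expression moved the median gene by at most 0.02 log2.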

Other observations

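Of the 78 pericyte-weighted barcodes 5 had over 5% globin UMIs, and 2 of the 93 marker-rich barcodes had over 20% mitochondrial UMIs. For each gene, the log2 CPM of WT replicate 1 and of Dp2Yey replicate 1 were taken as deviations from their genotype means. Across genes these deviations had a correlation of 0.27 in the vascular cluster and -0.04 in marker-rich barcodes. Genes are not independent replicates.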
